A study of Mus musculus with 11 samples.

Results

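The cholesterol genes of kidney S3 proximal tubule are described here, in mice lacking Tamm-Horsfall protein and in wild-type mice. They were chosen by name, as 33 genes for the synthesis, uptake, movement and efflux of cholesterol and for the sterol sensors that control it. Of the 33, 29 had a probe set (a group of oligonucleotides read as a single value) annotated with that gene symbol alone, out of 22180 genes so measured on the arrays. Acat2, Nr1h2 and Soat1 had none under these symbols, and the probe set of Idi1 also carries a second gene, so these 4 were not analysed here. Where a gene had more than 1 such probe set, the brightest on average over the 11 arrays was used.

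The arrays came from the S3 segment, the straight part of the proximal tubule, of 129/SvEv mice. There were 5 arrays of knockout mice (genotype THP -/-, for Tamm-Horsfall protein, also called uromodulin, the product of Umod) and 6 of wild-type mice. The labels give no age, sex or treatment and do not say how the Umod allele was made, nor whether the arrays come from separate mice; the p-values thus reflect array-to-array spread, which may be technical. Arrays were labelled as batch 1 (3 knockout, 5 wild type) or batch 2 (2 knockout, 1 wild type), and all values below are log2 signals or differences between them.

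Cells sense cholesterol in the endoplasmic reticulum, where the transcription factors SREBP-1 and SREBP-2 wait as membrane proteins bound to the escort protein SCAP. When sterols are plentiful, INSIG proteins hold SCAP in place, and when sterols are scarce SCAP carries SREBP to the Golgi, where proteases release it to switch on the synthesis and uptake genes. Excess cholesterol is oxidised in part to oxysterols, which activate the LXR receptors and through them the efflux pumps and the ligase that removes lipoprotein receptors.

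Umod, the deleted gene, was checked in every array. It read 3.68, 4.26, 4.67, 4.55 and 5.27 in knockout arrays 1 to 5, against a lowest value of 5.27, a median of 5.67 and a highest value of 6.74 in wild type. Knockout array 5 thus equalled the lowest wild-type arrays, and the other 4 were below them. The difference was -1.52 ± 0.24 (SE), with a limma adjusted p of 0.281. The sources used here do not say whether the probe set lies in the deleted part. Array medians ran from 3.85 to 4.01, and correlations between arrays over all probe sets from 0.901 to 0.955. All 7 markers of S3 were above the array median in every array. So were 6 of 8 markers of the earlier proximal segments S1 and S2. The same held for 5 of 8 thick ascending limb markers, Umod included, and for 5 of 7 distal tubule and collecting duct markers. The mean of 7 thick ascending limb markers, Umod left out, was 7.34 in knockout array 4 and 5.49 to 5.85 in the other knockout arrays, against 4.98 to 5.69 in wild type. The mean of 7 distal tubule and collecting duct markers was likewise 6.89 in knockout array 4 and 4.41 to 5.40 in the other knockout arrays, against 4.58 to 5.39 in wild type. Knockout array 4 therefore stood apart in markers of neighbouring tubule segments. The counts over all 29 genes and over the synthesis genes are given with and without it. They are also given without knockout array 5, because of its Umod value.

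Most cholesterol genes had higher signal in knockout tubules, but none passed the test over the whole array. Of the 29 measured genes, 24 had a batch-adjusted difference (knockout minus wild type) above 0, beside 53.4% of all genes, and the median difference was 0.20, beside 0.01 over all genes. With limma and Benjamini-Hochberg adjustment over all 41345 probe sets, 0 of the 29 genes passed an adjusted p of 0.05, and so did 0% of all genes. At an unadjusted p under 0.05, 5 genes were higher in knockout (Nsdhl, Hmgcs1, Scap, Mvd and Srebf1), beside 3.64% of all genes, and 0 were lower, beside 2% of all genes. Without knockout array 4 the same counts were 22 genes above 0 and 5 higher at an unadjusted p under 0.05. Without knockout array 5 they were 25 and 6. All 17 synthesis genes (mevalonate and sterol steps) were above 0, and 15 of the 17 without knockout array 4, where Fdps was at -0.03 and Dhcr7 at -0.03. Without knockout array 5 all 17 were above 0. In bulk samples such as these, fewer cells of a type and less RNA per cell cannot be told apart.

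**Figure D1:**
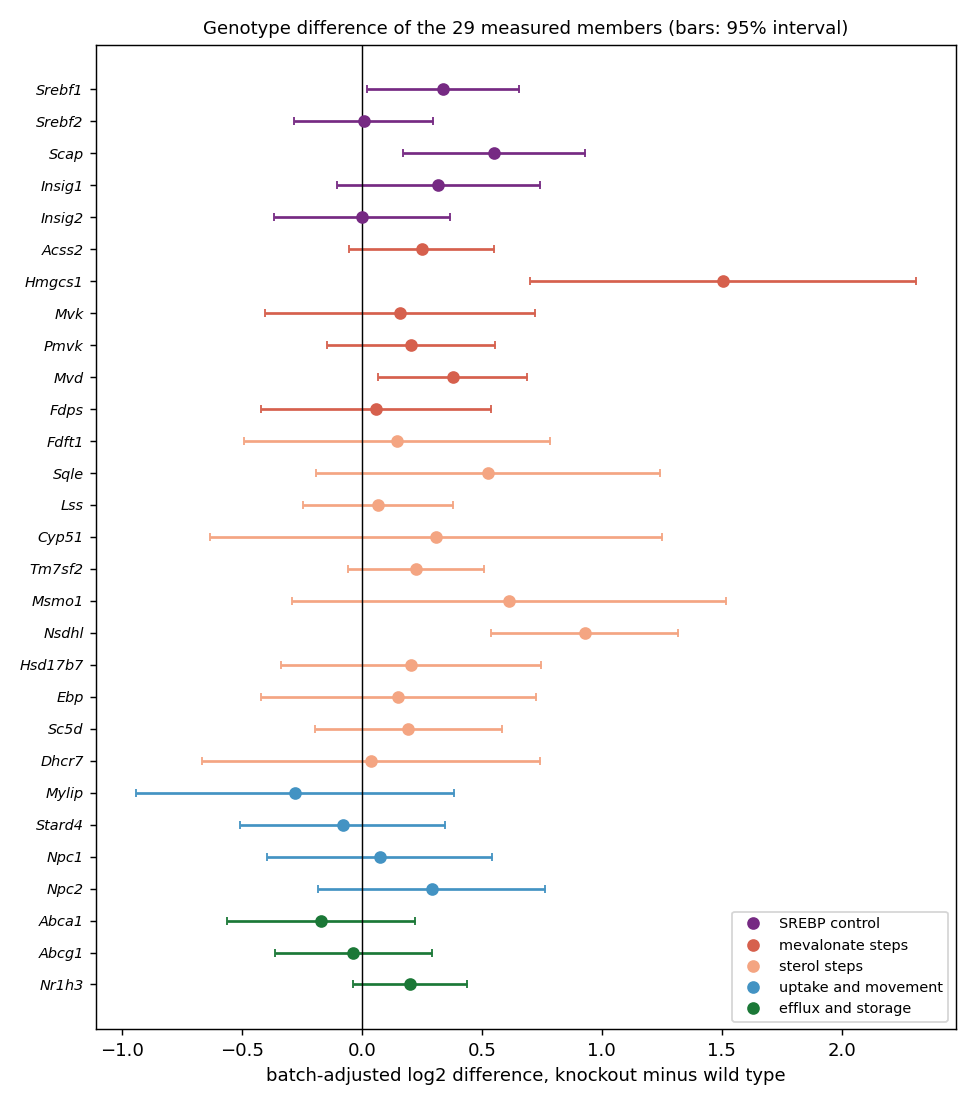
Batch-adjusted log2 difference, knockout minus wild type (horizontal axis), of each of the 29 measured genes, ordered and coloured by role, with 95% intervals from limma as bars. All 17 synthesis genes (mevalonate and sterol steps) lie above 0, from 0.04 for Dhcr7 to 1.51 for Hmgcs1, while the 7 uptake and efflux genes lie on both sides, from -0.28 for Mylip to 0.29 for Npc2.

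Among the sterol sensors, the escort gene Scap and the SREBP-1 gene Srebf1 had higher signal in knockout arrays, and the SREBP-2 gene Srebf2 differed by 0.01. Of the 5 sensor genes 4 were above 0, with a median of 0.32, and 2 had an unadjusted p under 0.05. Scap read 7.85, 7.62, 8.22, 7.89 and 7.53 in knockout arrays 1 to 5, against a lowest value of 7.04, a median of 7.19 and a highest value of 7.69 in wild type. Its groups overlapped, because wild-type arrays 1 and 3 were above the lowest knockout array. The difference was 0.55 ± 0.17 (SE), or 1.46-fold, its limma adjusted p was 0.730 and its two-sided exact permutation p within batches 0.0238. A second probe set named Scap differed by -0.08 ± 0.10 (SE), and the mean of both by 0.23, so the probe sets of this gene gave different values. The second was dim, at 4.01 to 4.23 in knockout and 4.07 to 4.39 in wild type, beside array medians of 3.85 to 4.01. Whether its low signal accounts for the different values was not tested.

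Srebf1, which encodes SREBP-1, the form that drives mainly fatty acid synthesis genes, read 5.24, 5.58, 5.07, 5.51 and 5.64 in knockout arrays 1 to 5. In wild type its lowest value was 4.59, its median 5.05 and its highest 5.24. Knockout arrays 2, 4 and 5 were above every wild-type array. The difference was 0.34 ± 0.14 (SE), with 0.34 within each batch, limma adjusted p 0.792 and exact permutation p 0.0417. Srebf2, which encodes SREBP-2, the main activator of cholesterol synthesis genes, read 5.65, 5.39, 5.60, 5.09 and 5.59 in knockout arrays, against 5.36 at lowest, 5.47 at the median and 5.77 at highest in wild type. Knockout array 4 was below all wild-type arrays and the other 4 lay inside their range, and the difference of 0.01 had a 95% interval from -0.28 to 0.30.

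The INSIG genes, which hold SCAP in the endoplasmic reticulum, had different values. Insig1, itself a target of SREBP, read 7.12, 7.51, 7.59, 7.75 and 7.14 in knockout arrays 1 to 5, against 6.53 at lowest, 7.08 at the median and 7.51 at highest in wild type. Knockout arrays 3 and 4 were above all wild-type arrays, and the batch-adjusted difference of 0.32 ± 0.19 (SE) did not pass at an unadjusted p of 0.127. Within batch 1 the difference was 0.45 and within batch 2 it was -0.06. Insig2, which is less dependent on SREBP, differed by -0.0003 ± 0.17 (SE).

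**Figure D2:**
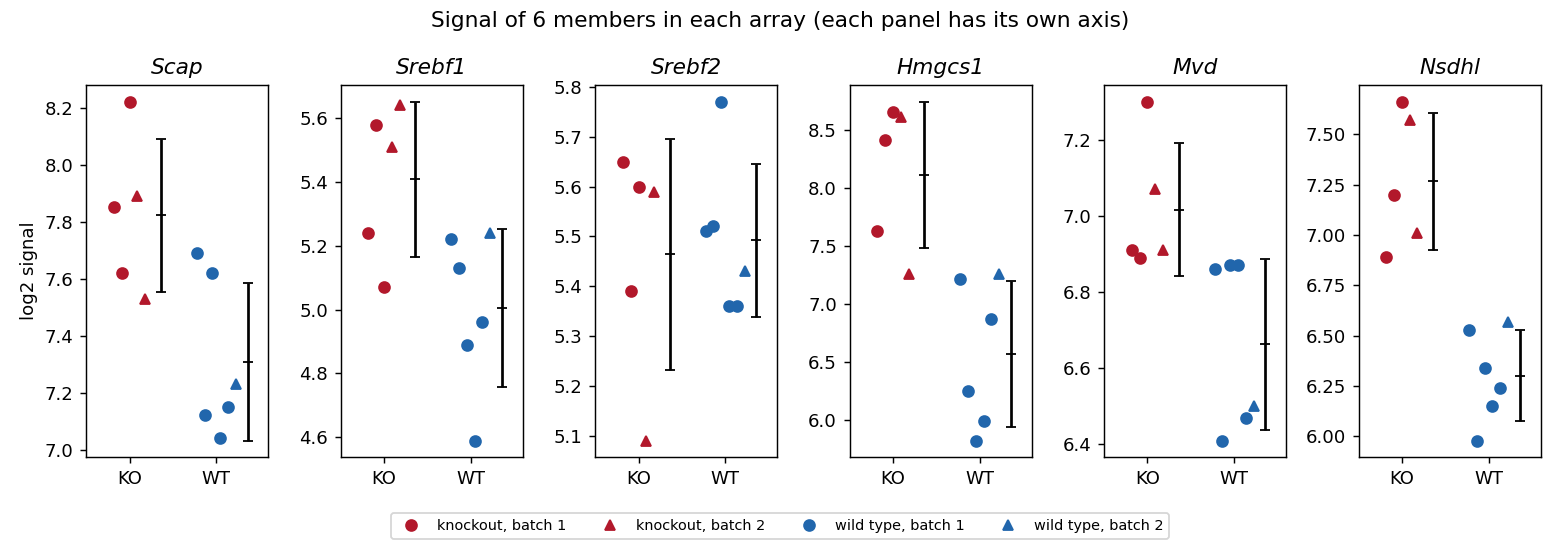
Log2 signal in each array (vertical axis, its own range in each panel) of the sensor genes Scap, Srebf1 and Srebf2 and of the enzymes Hmgcs1, Mvd and Nsdhl, for knockout arrays (red, left) and wild-type arrays (blue, right). Circles are batch 1, triangles batch 2, and black bars the mean ± SD (n = 5 knockout, n = 6 wild type). Mvd and Nsdhl show no overlap between the genotypes, and Srebf2 overlaps, with knockout array 4 lowest.

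The synthesis genes that stood out were Hmgcs1, Mvd and Nsdhl, so their promoters are printed, each as 250 bases before and 50 after the start of the gene (RefSeq, GRCm38.p6). Hmgcs1 lies at chr13:119690101-119690400 on the plus strand, Mvd at chr8:122443373-122443672 on the minus strand and Nsdhl at chrX:72918271-72918570 on the plus strand. Capitals mark the CCAAT box (CCAAT, or ATTGG where it is read on the opposite strand), which binds the factor NF-Y, a partner of SREBP, and in Hmgcs1 also the core of the sterol regulatory element.
Hmgcs1: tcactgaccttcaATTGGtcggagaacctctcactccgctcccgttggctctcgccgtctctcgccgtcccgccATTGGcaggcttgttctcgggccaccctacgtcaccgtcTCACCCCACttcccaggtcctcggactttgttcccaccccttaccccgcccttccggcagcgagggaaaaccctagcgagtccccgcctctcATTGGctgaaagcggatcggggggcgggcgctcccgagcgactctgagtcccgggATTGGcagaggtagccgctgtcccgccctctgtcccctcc
Mvd: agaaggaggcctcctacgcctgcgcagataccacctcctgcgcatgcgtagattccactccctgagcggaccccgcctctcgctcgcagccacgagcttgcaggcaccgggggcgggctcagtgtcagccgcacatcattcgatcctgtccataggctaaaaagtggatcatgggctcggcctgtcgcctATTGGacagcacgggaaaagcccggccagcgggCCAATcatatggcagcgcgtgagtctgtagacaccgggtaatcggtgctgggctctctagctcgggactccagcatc
Nsdhl: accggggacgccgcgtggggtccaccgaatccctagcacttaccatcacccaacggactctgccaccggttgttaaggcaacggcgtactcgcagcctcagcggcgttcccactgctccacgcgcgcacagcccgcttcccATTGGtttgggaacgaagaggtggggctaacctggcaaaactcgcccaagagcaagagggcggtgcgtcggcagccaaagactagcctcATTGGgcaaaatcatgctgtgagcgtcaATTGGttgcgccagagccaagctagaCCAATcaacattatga

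Motifs were searched on both strands in the windows of the 23 measured genes that RefSeq's table holds. CCAAT was found in all 14 synthesis genes with a window and in 6 of the 9 others, while 41.1% of all 27025 genes with a window hold it. The core of the sterol regulatory element, searched as TCACNCCAC, was found in Hmgcs1 alone, where 1.44% of all genes hold it. The longer form SRE-1, which contains that core, was in none of the 23 genes and 0.0999% of all genes, and the LXR motif, the element AGGTCA repeated after 4 bases, was in none of them and 0.0148% of all genes. These matches describe letters in a window and were not set against windows of like base composition. Only exact matches were counted, so a gene without a match may hold a variant site or a site outside its window.

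Mevalonate is made from acetyl units and then turned into the isoprene blocks of sterols. All 6 measured genes of these steps were above 0, with a median difference of 0.23, and 2 of the 6 had an unadjusted p under 0.05. Hmgcs1, the cytosolic synthase that makes HMG-CoA, had the largest difference of the 29 genes. It read 7.63, 8.41, 8.65, 8.61 and 7.26 in knockout arrays 1 to 5, against a lowest value of 5.82, a median of 6.56 and a highest value of 7.26 in wild type. Only knockout array 5 reached down to the wild-type range, where it equalled wild-type array 6, the array of its own batch. The batch-adjusted log2 difference was 1.51 ± 0.37 (SE; 95% interval 0.70 to 2.31), which is 2.84-fold. Its limma adjusted p was 0.543 and its exact permutation p 0.0179. Within batch 1 it was 1.80 and within batch 2 0.68.

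Mvd, the decarboxylase that makes isopentenyl diphosphate, had a smaller but tighter difference. It read 6.91, 6.89, 7.30, 7.07 and 6.91 in knockout arrays 1 to 5, against 6.41 at lowest, 6.68 at the median and 6.87 at highest in wild type. The groups did not overlap, although the gap was only between 6.89 in knockout and 6.87 in wild type. The difference was 0.38 ± 0.14 (SE), or 1.30-fold, limma adjusted p 0.761, exact permutation p 0.0238. It was the only synthesis gene whose difference was larger within batch 2 (0.49) than within batch 1 (0.34).

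The other genes of these steps had small differences. Acss2, which makes acetyl-CoA from acetate, differed by 0.25 ± 0.14 (SE), and the phosphomevalonate kinase gene Pmvk by 0.20 ± 0.16. The mevalonate kinase gene Mvk differed by 0.16 ± 0.26, with 0.47 within batch 1 and -0.72 within batch 2. Fdps, which makes farnesyl diphosphate, differed by 0.06 ± 0.22. Each of these had an unadjusted limma p above 0.05, with limma adjusted p from 0.826 to 0.977.

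Along the sterol steps, which run from farnesyl diphosphate over squalene and lanosterol to cholesterol, all 11 genes were above 0, with a median difference of 0.20. Nsdhl was the only one with an unadjusted p under 0.05. It encodes the dehydrogenase that removes a carboxyl group during the demethylation of lanosterol derivatives. It read 6.89, 7.20, 7.66, 7.57 and 7.01 in knockout arrays 1 to 5, against 5.98 at lowest, 6.29 at the median and 6.57 at highest in wild type. The lowest knockout array, at 6.89, was above the highest wild-type array, at 6.57, so the genotypes did not overlap. The difference was 0.93 ± 0.18 (SE), or 1.90-fold, with 1.0 within batch 1 and 0.72 within batch 2. The limma adjusted p was 0.324, the lowest of the 29 genes, and the exact permutation p of 0.00595 was the smallest that these arrangements allow. Nsdhl and Mvd were the 2 genes of 29 whose groups did not overlap with knockout above, where 0.433% of all genes did so, and 0.627% did so in either direction.

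Nsdhl works between Msmo1, the methyl oxidase, and Hsd17b7, the ketoreductase of the same demethylation. Msmo1 read 5.22, 6.54, 6.45, 6.20 and 5.12 in knockout arrays 1 to 5, against 4.17 at lowest, 5.48 at the median and 6.04 at highest in wild type. Knockout arrays 1 and 5 lay inside the wild-type range and arrays 2, 3 and 4 above it. The difference of 0.61 ± 0.41 (SE) did not pass at an unadjusted p of 0.164, and that of Hsd17b7 was 0.20 ± 0.25.

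Enzymes of squalene and lanosterol had no difference that passed the test, and the spread of Sqle, Cyp51 and Fdft1 was wide. Sqle, the squalene epoxidase and a rate-limiting step, read 7.10, 7.67, 7.98, 8.02 and 7.05 in knockout arrays 1 to 5, against 5.92 at lowest, 7.11 at the median and 7.74 at highest in wild type. Again knockout arrays 1 and 5 were the low ones, and the difference was 0.53 ± 0.33 (SE). The lanosterol demethylase gene Cyp51 differed by 0.31 ± 0.43, its wild-type arrays alone running from 5.93 to 8.11. The squalene synthase gene Fdft1 differed by 0.15 ± 0.29. Lss, the lanosterol synthase gene, was below the array median in all 11 arrays and was not shown to be above background.

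Other sterol step genes had an unadjusted limma p above 0.05. Tm7sf2, the sterol reductase gene whose product acts after Cyp51, was at 0.23 ± 0.13 (SE). Of the later steps, the desaturase gene Sc5d at 0.19 ± 0.18, the isomerase gene Ebp at 0.15 ± 0.26 and Dhcr7, the reductase of the last step, at 0.04 ± 0.32. The 95% interval of Dhcr7 ran from -0.67 to 0.74, which includes changes in both directions. With quantile normalization 16 of the 17 synthesis genes were above 0 and Dhcr7 was not, and with median centring all 17 were.

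All 17 synthesis genes were higher in knockout within batch 1, with a median difference of 0.33, and 9 of 17 within batch 2, with a median of 0.04. Of all 22180 genes, 12072 were higher in knockout within batch 1 and 11176 within batch 2, with medians of 0.02 and 0.005. In 16 of the 17 synthesis genes the difference was smaller within batch 2. Over all 29 genes 14 were above 0 in both batches (29.9% of all genes were), and all 5 genes named above at an unadjusted p under 0.05 were among them. The test of the difference between batches, a genotype by batch term in limma, had 0% of probe sets past an adjusted p of 0.05. Of the 29 genes only Mvk had an unadjusted p under 0.05 in that test, where 3.27% of all genes did. Batch 2 holds a single wild-type array, so its values rest on 3 arrays in all.

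**Figure D3:**
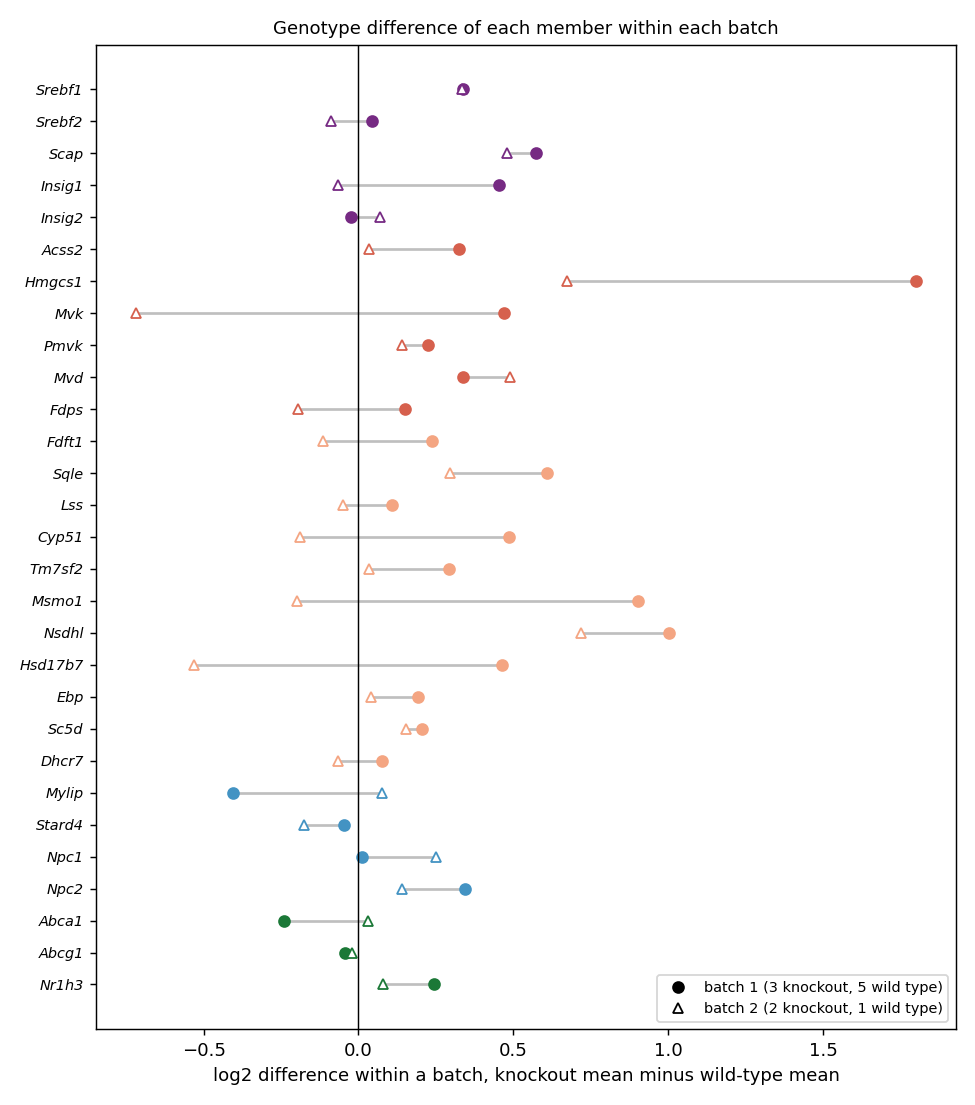
Log2 difference, knockout mean minus wild-type mean (horizontal axis), of each of the 29 genes within batch 1 (filled circles, 3 knockout and 5 wild-type arrays) and within batch 2 (open triangles, 2 knockout and 1 wild-type array), joined by grey lines and coloured by role as in the plot of batch-adjusted differences. In 16 of the 17 synthesis genes the triangle lies left of the circle; Mvd is the exception.

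The mean signal of the 17 synthesis genes was 5.90, 6.45, 6.58, 6.45 and 5.93 in knockout arrays 1 to 5, against 6.16, 5.81, 5.77, 5.47, 6.02 and 6.16 in wild-type arrays 1 to 6. Knockout arrays 2, 3 and 4 were above every wild-type array, and knockout arrays 1 and 5 lay inside the wild-type range. Knockout array 3 held the highest value of 7 of the 17 genes, and wild-type array 4 the lowest value of 5. Single genes departed from the mean: Lss had its lowest value, 3.0, in knockout array 3, and Pmvk its highest, 6.09, in knockout array 1. Without knockout array 3, 14 of the 17 genes were above 0, and the median over all 29 genes was 0.07.

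The S3 markers followed the synthesis mean in its highest and lowest arrays. The mean of the 7 S3 markers was 8.88, 9.61, 9.89, 9.48 and 8.64 in knockout arrays 1 to 5, against 9.21, 8.74, 8.54, 7.84, 9.21 and 8.84 in wild-type arrays 1 to 6. It was thus highest in knockout array 3 and lowest in wild-type array 4, as was the mean of the synthesis genes. Of the S3 markers 2 had an unadjusted p under 0.05 with higher signal in knockout, beside 3.64% of all genes, and 0 passed the adjusted threshold. Their differences ran from 0.16 for Slc22a13 to 1.11 for Slc22a7. The batch-adjusted difference of the S3 mean was 0.61, with 0.75 within batch 1 and 0.22 within batch 2. The mean of the 8 markers of the earlier segments, S1 and S2, ran from 5.38 to 6.51 in knockout and from 5.56 to 6.40 in wild type. It was 5.38 in knockout array 2 and 6.51 in knockout array 4, where the synthesis mean was 6.45 in both. Slc5a12, a lactate transporter gene and a marker of these segments, was the only one with an unadjusted p under 0.05, at -0.63 ± 0.19 (SE). Its signal was low, 3.46 to 4.30 in knockout and 3.69 to 4.84 in wild type, beside array medians of 3.85 to 4.01. All the other markers of that list but Slc7a8, at 0.43, were below 0, down to -0.33 for Gatm. The S3 mean minus the S1 and S2 mean itself had a batch-adjusted genotype difference of 0.81, beside 0.35 for the mean of the synthesis genes. With the S3 mean minus the S1 and S2 mean as a covariate, 8 of the 17 synthesis genes and 15 of all 29 were above 0, and the median over the 29 was 0.02. In that fit Hmgcs1 was at 0.91, Nsdhl at 0.76, Scap at 0.48 and Mvd at 0.43, each with an unadjusted limma p under 0.05, and Srebf1 at 0.21 with an unadjusted limma p of 0.224, whereas Cyp51 was at -0.45, Dhcr7 at -0.43 and Sqle at -0.03. Whether the segment markers account for these differences was not tested beyond that fit. The mean of 8 leukocyte markers ran from 4.39 to 4.59 in knockout and from 4.25 to 4.57 in wild type, with Ptprc and Adgre1 below the median of every array. Csf1r, the macrophage growth factor receptor gene of that list, averaged 6.93 in knockout and 6.34 in wild type, a difference of 0.58 ± 0.19 (SE) with a limma adjusted p of 0.735. It was the only one of the 8 with an unadjusted p under 0.05, and the others ran from -0.34 for Cd3e to 0.20 for Cd68. The mean of 3 adipocyte markers ran from 3.72 to 4.11 in knockout and from 3.48 to 3.81 in wild type, with Adipoq below the median of every array. Fabp4 differed by 0.48 ± 0.27 (SE), Adipoq by 0.19 and Plin1 by -0.08, each with an unadjusted limma p above 0.05.

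**Figure D4:**
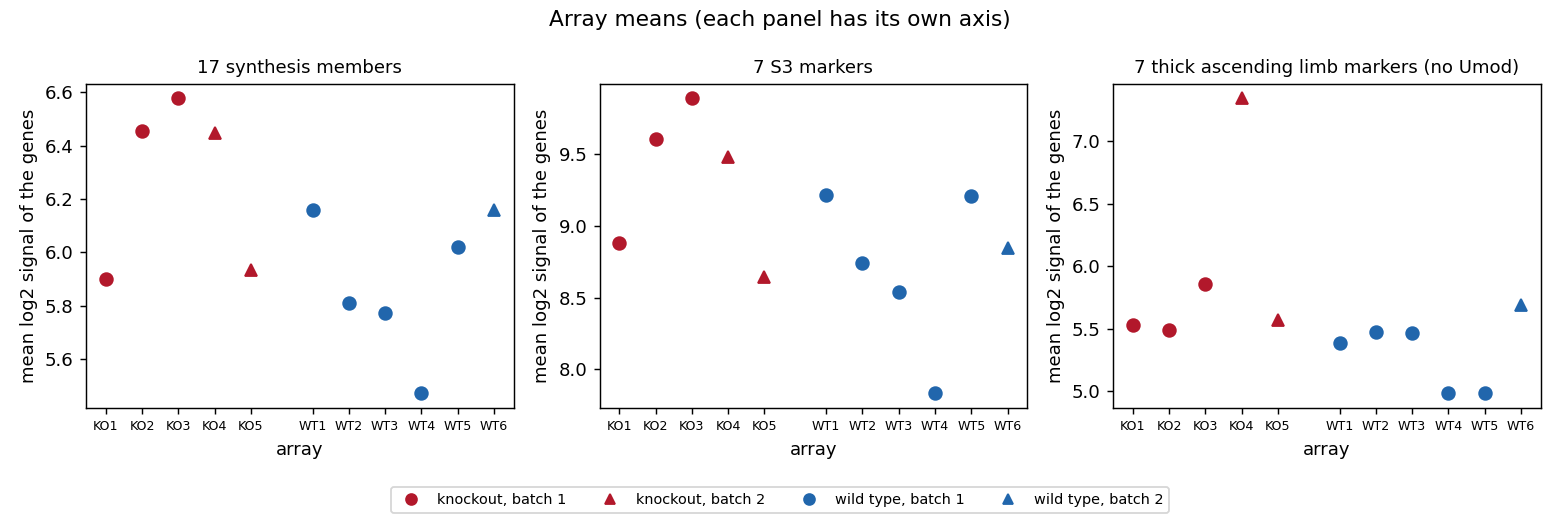
Mean log2 signal (vertical axis, its own range in each panel) of the 17 synthesis genes, of 7 S3 markers and of 7 thick ascending limb markers without Umod, in each array (knockout arrays 1 to 5 at left in red, wild-type arrays 1 to 6 at right in blue; circles batch 1, triangles batch 2). Knockout arrays 2, 3 and 4 are the highest in the first 2 panels, and knockout array 4 stands alone at 7.34 in the third.

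Uptake and movement genes lay on both sides of 0. Of 4 measured, 2 were above 0 and 2 below, with 0 at an unadjusted p under 0.05. Npc2, the lysosomal carrier that hands cholesterol to NPC1, read 5.92, 6.78, 6.99, 7.03 and 6.51 in knockout arrays 1 to 5, against 5.95 at lowest, 6.32 at the median and 6.63 at highest in wild type. Knockout arrays 2, 3 and 4 were above every wild-type array, the same arrays as for the synthesis mean, and the difference was 0.29 ± 0.21 (SE). Npc1, the lysosomal membrane transporter, differed by 0.07 ± 0.21, and Stard4, which moves sterol between membranes, by -0.08 ± 0.19. Mylip, the ubiquitin ligase that directs lipoprotein receptors to degradation, differed by -0.28 ± 0.30, with -0.41 within batch 1 and 0.08 within batch 2.

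Efflux genes showed no difference past the test between the genotypes, with 1 of 3 above 0 and 2 below. Abca1, the pump that loads cholesterol onto apolipoprotein A-I, read 5.58, 5.25, 5.64, 5.88 and 6.16 in knockout arrays 1 to 5, against 5.26 at lowest, 5.85 at the median and 6.20 at highest in wild type. The groups overlapped almost fully, and the difference was -0.17 ± 0.18 (SE), with a 95% interval from -0.56 to 0.22. Abcg1, which passes cholesterol to mature lipoprotein particles, differed by -0.04 ± 0.15. Nr1h3, which encodes the receptor LXR-alpha, read 5.50, 5.83, 5.73, 5.74 and 5.60 in knockout arrays 1 to 5, against 5.32 at lowest, 5.48 at the median and 5.59 at highest in wild type. All but knockout array 1 were above the wild-type range, although knockout array 5, at 5.60, was barely above the wild-type highest value of 5.59. The difference of 0.20 ± 0.11 (SE) had an unadjusted limma p of 0.0895, an adjusted one of 0.826 and an exact permutation p of 0.0417.

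Genes around the pathway were read from 6 further lists, and 0 of their members passed the adjusted threshold. The shares over all genes, to set beside the counts of each list, were 53.4% above 0, 3.64% higher at an unadjusted p under 0.05 and 2% lower. Of 9 other cholesterol synthesis and receptor genes 4 had a value here, all above 0, with a median of 0.58, and 3 had an unadjusted p under 0.05. Aacs, which makes acetoacetyl-CoA for this pathway from ketone bodies, read 7.20, 7.22, 7.25, 7.01 and 6.93 in knockout arrays 1 to 5, against 6.05 at lowest, 6.37 at the median and 6.77 at highest in wild type. Its groups did not overlap, with knockout above, as for 0.433% of all genes. The difference was 0.74 ± 0.15 (SE), or 1.67-fold, with a limma adjusted p of 0.366. Within batch 1 it was 0.93 and within batch 2 0.20 (unadjusted limma p of the difference between batches 0.0187, adjusted 1). Tmem97, a sterol-regulated membrane protein that binds NPC1, differed by 0.75 ± 0.26, and Acat1, the mitochondrial thiolase, by 0.42 ± 0.16.

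Of 10 measured genes for the processing of SREBP and for sterol-regulated protein degradation, 8 were above 0 and 3 had an unadjusted p under 0.05, all higher in knockout. Erlin1, a scaffold of the degradation complexes in the endoplasmic reticulum, read 6.44, 6.41, 7.0, 7.15 and 6.64 in knockout arrays 1 to 5, against 5.94 at lowest, 6.05 at the median and 6.50 at highest in wild type. The difference was 0.49 ± 0.16 (SE), that of Ubxn4, an adaptor of the same degradation route, 0.35 ± 0.14, and that of the ligase gene Syvn1 0.26 ± 0.11. Fatty acid synthesis genes driven by SREBP-1 were above 0 in 9 of 13 cases, with a median of 0.21. Of these only Fasn, the fatty acid synthase gene, had an unadjusted p under 0.05, at 0.61 ± 0.23, with 6.67, 6.73, 6.67, 7.18 and 6.48 in knockout arrays and 6.48 at highest in wild type.

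The non-sterol branches of the mevalonate pathway (prenyl, dolichol and ubiquinone genes) were above 0 in 6 of 11 cases, with a median of 0.10 and 0 at an unadjusted p under 0.05. Lipoprotein receptors and apolipoproteins were above 0 in 9 of 14, with a median of 0.15. There Apom, which encodes an apolipoprotein secreted by liver and kidney, was the only gene with an unadjusted p under 0.05, lower in knockout at -0.50 ± 0.15 (SE). It read 6.07, 6.05, 6.41, 6.15 and 6.39 in knockout arrays 1 to 5, against 6.39 at lowest, 6.70 at the median and 7.10 at highest in wild type. Genes of sterol movement, esters and oxysterols were above 0 in 7 of 20, with a median of -0.09. In that list the endosomal sterol carrier gene Stard3 was at 0.46 ± 0.16 and the lipid transfer gene Stard10 at 0.41 ± 0.15, both with an unadjusted p under 0.05.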

How the data were processed

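S3 tubule RNA was isolated with a kit for very small samples and amplified with a WT Pico kit, per the labels. The values deposited by the authors are log2 signals. The submitters' processing notes name Partek 6.6 and RMA. The sources used here name no batch correction or filter before deposit. Amplification from little RNA can add spread, which was not measured here, and RMA draws array distributions together. Of 41345 probe sets, 23521 carried 1 gene symbol. All were fitted with limma 3.58.1 (R 4.3.3) on genotype plus batch, unfiltered, with 8 residual degrees of freedom, two-sided tests and Benjamini-Hochberg adjustment over all probe sets at 0.05. The code of the fit was run on simulated data with independent noise, no batch effect and added genotype changes. That run does not measure power or error in these arrays. Single genes had exact permutations of genotype within batches. Plots used matplotlib 3.10.9. The number of arrays limits precision. Array values are given for genes with an unadjusted p under 0.05 or the smallest p of their role and for Srebf1, Srebf2, Insig1, Abca1 and Umod. Those of Msmo1 and Sqle were added after their values were seen. Further pathway genes are named at an unadjusted p under 0.05, at most 4 per list. The members and lists were chosen with earlier results of these data known. Alternatives were other models, scalings, probe set filters, marker covariates and each array left out.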

Additional observations from a re-analysis of the deposited data

How the results depend on the processing

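No gene of the 29 passed an adjusted p of 0.05 under any of the settings run, the lowest being 0.201 for Nsdhl without knockout array 5, nor at a threshold of 0.10, where 4 probe sets of the whole array passed. The count of probe sets past the threshold was 0 in the reported fit, 3 in batch 1 alone and 0 to 11 when each array was left out in turn, with 11 without knockout array 5, 2 without knockout array 3, 1 without wild-type array 1 and 3 without wild-type array 6. The count of genes higher at an unadjusted p under 0.05 was 5 in the reported fit. It was 3 in batch 1 alone, 3 with quantile normalization, 3 with the thick ascending limb mean as covariate and 2 with the replicate block. It was 4 with the mean of a gene's probe sets, and 3 to 6 when each array was left out (3 without wild-type array 6, 6 without knockout array 5). With the S3 minus S1 and S2 score as a covariate, 15 of 29 genes and 8 of 17 synthesis genes were above 0. The cause was not tested. The median of the 29 genes ranged from 0.02 with that covariate to 0.26 without knockout array 1, and was 0.07 without knockout array 3.

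Signs turned for 5 genes with array values. With the S3 minus S1 and S2 score Abca1 was at 0.035, Npc2 at -0.015, Msmo1 at -0.055 and Sqle at -0.028. Srebf2, reported at 0.01, was at -0.028 without the batch term, -0.032 with batch as a random block, -0.020 with quantile normalization and -0.053 with the replicate block. It ran from -0.038 to 0.067 when each array was left out, below 0 without knockout arrays 1, 3 or 5 or wild-type arrays 4 or 5. Arrays of the same replicate number did not deviate together (correlations from -0.18 to 0.01). These deviations were taken from genotype means without a batch term, and arrays 4 and 5 of the 2 genotypes came from different batches. They thus cannot settle whether the number pairs the arrays. Signal over background was not given, which limits dim genes such as Lss. The counts of genes above 0 and at an unadjusted p were added after seeing the data.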

Other observations

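Synthesis genes differed in their spread once genotype and batch were fitted, and many were among the more variable genes of these arrays. Of the 17, 9 had a residual SD at the 91st percentile of all genes or higher, with 0.78 for Cyp51, 0.75 for Msmo1, 0.66 for Hmgcs1 and 0.59 for Sqle, beside a median of 0.24 over all genes. Nsdhl and Mvd were nearer to that median, at 0.29 and 0.21. Like Mvd, Tm7sf2, Acss2 and Lss were below it, at 0.18, 0.20 and 0.21. The percentiles were taken over all genes, dim ones included, and were not matched for signal. The LXR-alpha gene Nr1h3 was among the steadiest, at 0.13, and Srebf2 was at 0.19.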
